A study of Mus musculus with 10 samples.

Results

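Small leucine-rich proteoglycans (SLRPs) are secreted matrix proteins built on leucine-rich repeats, and the 10 SLRP genes described here were Bgn, Dcn, Fmod, Lum, Ogn, Omd, Prelp, Aspn, Optc and Kera. They were taken by gene symbol from a count table of 50763 genes, and all 10 symbols were found. The RNA came from lens epithelium of mice aged 3 weeks and was sequenced in 10 libraries, of which 3 were wild-type (WT), 3 OVE853 and 4 OVE918. All mice shared the inbred FVB/N background and received no treatment. OVE853 and OVE918 are independent homozygous families whose transgene, driven in lens cells by the murine αA-crystallin promoter, encodes a secreted and always active human TGF-β1, and both families form plaques under the anterior lens capsule (anterior subcapsular cataract, ASC). Each library was a pool and not a single animal, with up to 9 mice in a WT pool, up to 18 explants from 9 mice in an OVE853 pool and up to 14 explants from 7 mice in an OVE918 pool. Pools held males and females, and the complete explanted epithelium was used, so that plaque and plaque-free epithelium were measured together. In such bulk RNA, fewer cells of a type and less RNA per cell cannot be told apart.

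SLRPs coat collagen fibrils, set fibril diameter and spacing, and in part carry chondroitin, dermatan or keratan sulfate chains. Several of them bind TGF-β or growth factor receptors, so that they sit both downstream of TGF-β signalling and among the proteins that modulate it. Class I holds Bgn (biglycan), Dcn (decorin) and Aspn (asporin), class II holds Fmod (fibromodulin), Lum (lumican), Prelp, Kera (keratocan) and Omd (osteomodulin), and class III holds Ogn (osteoglycin, also called mimecan) and Optc (opticin). In the eye, lumican and keratocan are best known as keratan sulfate proteoglycans of the transparent corneal stroma, and opticin as a glycoprotein of the vitreous and of the ciliary epithelium and lens capsule that border it.

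On GRCm39 (GENCODE vM39), 9 of the 10 genes lay in 3 clusters. The chromosome 1 cluster ran over 151.1 kb and held Optc (133824937 to 133836274, minus strand), Prelp (133837335 to 133857971, minus strand) and Fmod (133964992 to 133976015, plus strand). Dcn, Lum and Kera lay within 134.3 kb on chromosome 10, and Aspn, Omd and Ogn within 82.8 kb on chromosome 13, inside Cenpp, which is on the opposite strand and whose exons lie apart from theirs. Bgn was alone on chromosome X (72527208 to 72539541). The exons of Prelp overlap those of Gm15851 on the opposite strand, and the authors counted by strand.

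RefSeq promoter windows (build GRCm38.p6 of the table, placed on GRCm39 by an exact and single match) were at hand for 8 of the 10 genes, all but Dcn and Lum. Each window ran from 250 bases before to 50 bases after the transcript start and was searched on both strands for the core of the SMAD-binding element, CAGAC, for the AP-1 element TGANTCA, and for the E-box CAGGTG, with no overlaps between matches of different motifs. CAGAC was found in 3 of the 8 windows, those of Optc, Prelp and Fmod, and 49.6% of all 32851 windows of the table held it. TGANTCA was found in 0 of the 8 windows and in 7.8% of all windows. CAGGTG was found in the window of Optc alone and in 20.2% of all windows. The chromosome 1 genes are shown because their transcripts moved together in the results that follow. Capitals mark CAGAC or its reverse complement GTCTG, and in Optc also CACCTG, the reverse complement of CAGGTG. Each stretch reads 5′ to 3′ on the strand of its gene and leaves out exons annotated by GENCODE, apart from Optc, whose window is largely exonic in a longer transcript and of which 30 bases around the matches are given. In Prelp, 2 further CAGAC matches lay after the start and are not shown. The Prelp window lies inside the gene, and 4 of the 15 GENCODE transcripts of Prelp that overlap it start in it. For Kera, 0 of the 2 transcripts that overlap its window start in it. The coordinates are chr1:133835798-133835827 (minus) for Optc, chr1:133849153-133849389 (minus) for Prelp and chr1:133964742-133964991 (plus) for Fmod. A match describes letters only and is no evidence of binding.
Optc: ctattagGTCTGcccactCACCTGgcatcg
Prelp: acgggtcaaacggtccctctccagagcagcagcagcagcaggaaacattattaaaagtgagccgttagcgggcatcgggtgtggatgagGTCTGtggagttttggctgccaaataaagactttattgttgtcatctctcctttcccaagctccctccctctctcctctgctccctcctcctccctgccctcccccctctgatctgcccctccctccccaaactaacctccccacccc
Fmod: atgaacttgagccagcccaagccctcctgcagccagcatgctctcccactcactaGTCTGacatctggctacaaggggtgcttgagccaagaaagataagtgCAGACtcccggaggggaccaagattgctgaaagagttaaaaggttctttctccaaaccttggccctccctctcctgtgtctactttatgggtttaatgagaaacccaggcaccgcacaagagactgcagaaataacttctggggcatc

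Libraries held 24073311 to 31908525 counts on genes. Levels are given as CPM (counts scaled to a common library size with edgeR's TMM factors), and levels of different genes are compared only per kilobase of exon (FPKM). Tgfb1, the gene of the transgene's product, stood at 54.3 ± 6.41 CPM in the 3 WT libraries (mean ± SD), at 349.5 ± 11.3 CPM in the 3 OVE853 libraries and at 775 ± 78.0 CPM in the 4 OVE918 libraries. According to the study, reads of the human transgene also align to this mouse gene, so that its counts cannot be split between transgene and endogenous Tgfb1. Of 11 lens epithelium markers (Pax6, Foxe3, Cdh1 and others), all 11 were above 3 counts in libraries of every group. Traces of other ocular tissue were uneven. Summed markers of retinal neurons had 1020 CPM in WT replicate 3 against 35.0 to 170 CPM in the other 9 libraries. For Optc, Fmod, Prelp, Ogn and Bgn, differences of OVE853 from WT are therefore also given without WT replicate 3. Those of OVE918 are given without it or as a range over leaving out each library. For Dcn, Omd and the genes of the other lists, results are given with all libraries only.

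Of the 10 SLRP genes, 9 had counts, and 5 were expressed at 2 FPKM or more in all 10 libraries (Optc, Fmod, Ogn, Prelp and Bgn). The other 5, Dcn, Omd, Lum, Aspn and Kera, reached 2 FPKM in 0 libraries. In WT epithelium opticin was the leading SLRP transcript, with a mean of 213 FPKM (range 144 to 324), and it ranked 192 among the 11094 genes that were tested. Fmod followed with 46.9 FPKM (41.5 to 50.1) and Ogn with 42.2 FPKM (32.5 to 56.4), and these neighbours in the order overlapped between libraries. Prelp had 20.6 FPKM (15.1 to 26.6) and Bgn 6.03 FPKM (4.195 to 7.21), without overlap with the gene above. Each of the 5 low genes averaged at most 0.211 FPKM in any group.

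**Figure D1:**
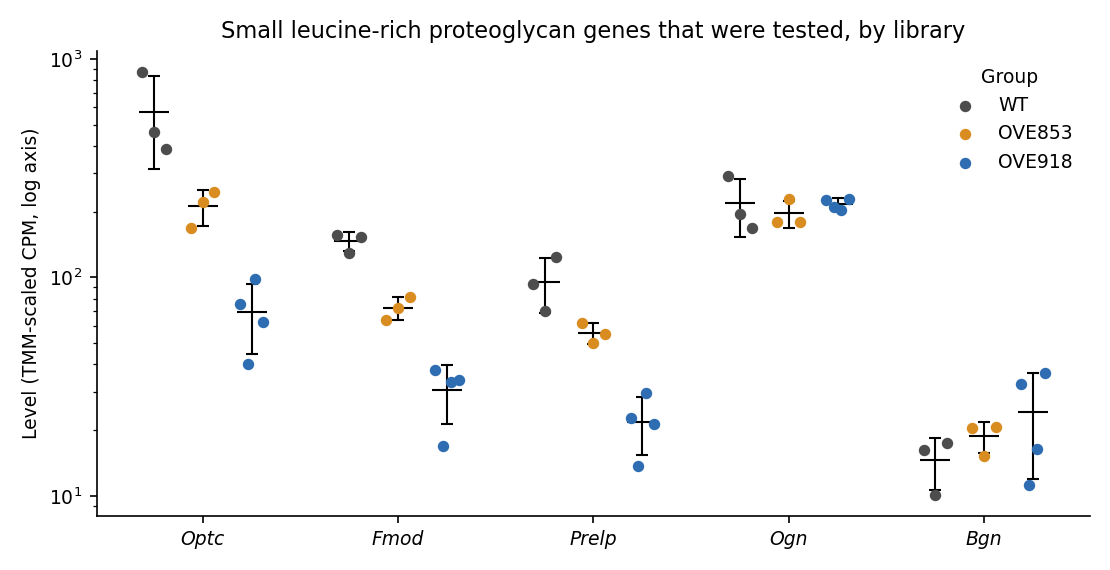
Level of the 5 expressed SLRP genes in each library (points, TMM-scaled CPM, logarithmic axis) with the mean and SD of each group (bars; n = 3, 3 and 4). Optc, Fmod and Prelp step down from WT to OVE853 to OVE918 without overlap, with group means for Optc of 574, 212 and 69.2 CPM, while the groups overlap for Ogn and Bgn.

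The first comparison, OVE853 against WT, asks how these genes stood in the line with the lower Tgfb1 level. Transcripts of the vitreous and lens capsule protein opticin and of the collagen-binding fibromodulin were lower in OVE853, at 36.9% and 49.8% of the WT mean. Prelp pointed the same way without passing the test, and osteoglycin and biglycan overlapped WT. A gene was called where its edgeR FDR (Benjamini-Hochberg over all 11094 genes tested) did not exceed 0.05 and its log2 fold change reached 1 in either direction. By this rule 2 of the 5 tested SLRP genes were called lower and 0 higher, against 1.91% of all tested genes called lower and 2.51% called higher. At an unadjusted p under 0.05, edgeR and DESeq2 had 0 of the 5 higher and voom had 1, and none of the 3 tools called any higher.

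Optc had 873, 462 and 388 CPM in WT replicates 1 to 3 and 168, 222 and 246 CPM in OVE853 replicates 1 to 3. All 3 OVE853 libraries lay under all 3 WT libraries, and WT replicate 1 stood well above the other WT pools. The log2 fold change of Optc was -1.44 ± 0.36 (SE; edgeR FDR 0.0248), and without WT replicate 1 it was -1.005 (edgeR FDR 0.0435). Without WT replicate 3 it was -1.65 (edgeR FDR 0.0169). Fmod, which binds fibrillar collagen and carries keratan sulfate, had 156, 129.5 and 153 CPM in WT and 64.0, 72.9 and 81.5 CPM in OVE853. The WT pools were close to each other, and again every OVE853 pool was lower. Its log2 fold change was -1.01 ± 0.24 (edgeR FDR 0.0178), so that it passed the fold limit by a small margin, and without WT replicate 1 or 3 it was -0.96 or -0.97 and no longer called. Without OVE853 replicate 1 or 2 neither gene was called, with edgeR FDRs of 0.0962 and 0.0697 for Optc and of 0.0806 and 0.0611 for Fmod, and without OVE853 replicate 3 Optc was not (edgeR FDR 0.0617).

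Prelp, a heparin-binding protein of the border between basement membrane and connective tissue, had 93.0, 70.1 and 124 CPM in WT and 61.9, 50.1 and 55.2 CPM in OVE853. The groups did not overlap, yet its log2 fold change of -0.78 ± 0.26 was not called (edgeR FDR 0.0638, 95% confidence interval -1.35 to -0.21), and it was -0.55 without WT replicate 3. Lower groups without overlap, as Optc, Fmod and Prelp showed, were found for 22% of all tested genes in this comparison. Ogn had 292, 194 and 168 CPM in WT and 179, 229 and 180.1 CPM in OVE853, with a log2 fold change of -0.15 ± 0.18 (edgeR FDR 0.577, interval -0.56 to 0.25). Its WT replicate 1 was the highest of the 6 libraries, as for Optc, and without it the sign of the Ogn difference turned (0.11). Bgn, a ligand of Toll-like receptors when released from matrix, had 16.2, 10.2 and 17.5 CPM in WT and 20.4, 15.2 and 20.8 CPM in OVE853. The groups overlapped, and its log2 fold change was 0.37 ± 0.41 (edgeR FDR 0.549, interval -0.55 to 1.28). Without WT replicate 3 it was 0.52, also without a call.

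The second comparison, OVE918 against WT, concerns the line with the higher Tgfb1 level. Optc, Fmod and Prelp, neighbours on chromosome 1, were called lower, at 12.0%, 20.8% and 22.9% of the WT means. Osteoglycin had nearly the same mean in both groups, at 99.8% of WT. The 3 WT pools are those of the first comparison, so that the comparisons are not independent. Of the 5 tested SLRP genes 3 were called lower and 0 higher, against 3.01% of all tested genes called lower and 2.58% called higher, and 15% of all tested genes had lower groups without overlap. At an unadjusted p under 0.05, edgeR had 0 of the 5 higher and DESeq2 and voom 1 each, without a call. Over the 5 SLRP genes the log2 fold change had a median of -2.13, and over all tested genes of 0.01.

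Optc had 75.3, 40.3, 98.7 and 62.3 CPM in OVE918 replicates 1 to 4, so that the highest OVE918 pool was still far under the lowest WT pool. Its log2 fold change against WT was -3.05 ± 0.34 (edgeR FDR 0.000210). Fmod had 37.6, 17.0, 33.1 and 34.1 CPM, with a log2 fold change of -2.27 ± 0.22 (edgeR FDR 7.06e-05). Prelp had 22.7, 13.8, 29.7 and 21.3 CPM, with a log2 fold change of -2.13 ± 0.24 (edgeR FDR 0.000197). OVE918 replicate 2 had the lowest level of all 3 genes, and none of the 3 overlapped WT. Leaving out any 1 of the 10 libraries kept all 3 calls, with log2 fold changes from -3.28 to -2.62 for Optc, from -2.38 to -2.07 for Fmod and from -2.31 to -1.90 for Prelp.

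Ogn had 226, 211, 204 and 229.7 CPM in OVE918, a narrower spread than in WT. Its log2 fold change was -0.0033 ± 0.17 (edgeR FDR 0.993), and the 95% confidence interval, -0.38 to 0.37, left room for differences within that range but not for a fall like that of the chromosome 1 genes. Bgn had 32.6, 11.3, 16.4 and 36.7 CPM, with OVE918 replicates 1 and 4 above every WT library and replicates 2 and 3 within the WT range. Its log2 fold change of 0.73 ± 0.39 was not called (edgeR FDR 0.227, interval -0.14 to 1.60). Without WT replicate 3 it was 0.88, also without a call.

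The third comparison, OVE918 against OVE853, tests whether the lines themselves differed, without WT libraries in the contrast. The lower level of Optc, Fmod and Prelp in OVE918 passed this test too, while Ogn and Bgn did not. The log2 fold changes were -1.62 ± 0.33 for Optc (edgeR FDR 0.0485), -1.26 ± 0.22 for Fmod (edgeR FDR 0.0347) and -1.35 ± 0.24 for Prelp (edgeR FDR 0.0370). Every OVE918 pool lay under every OVE853 pool for these 3 genes, as it did for 16.2% of all tested genes. The call rule took 3 of the 5 SLRP genes as lower and 0 as higher, against 0.415% and 0.0721% of all tested genes, and at an unadjusted p under 0.05 edgeR, DESeq2 and voom had 0 of the 5 higher. For Ogn the difference was 0.15 ± 0.17 (edgeR FDR 0.609, interval -0.23 to 0.53) and for Bgn 0.36 ± 0.38 (edgeR FDR 0.578, interval -0.49 to 1.22). These between-line calls lay close to the FDR limit. Without any single OVE853 replicate, or without OVE918 replicate 1 or 4, 0 of the 3 genes were called, without OVE918 replicate 3 Fmod was not (edgeR FDR 0.0598), and without WT replicate 2 only Prelp was, while the 3 differences stayed between -1.84 and -1.06.

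**Figure D2:**
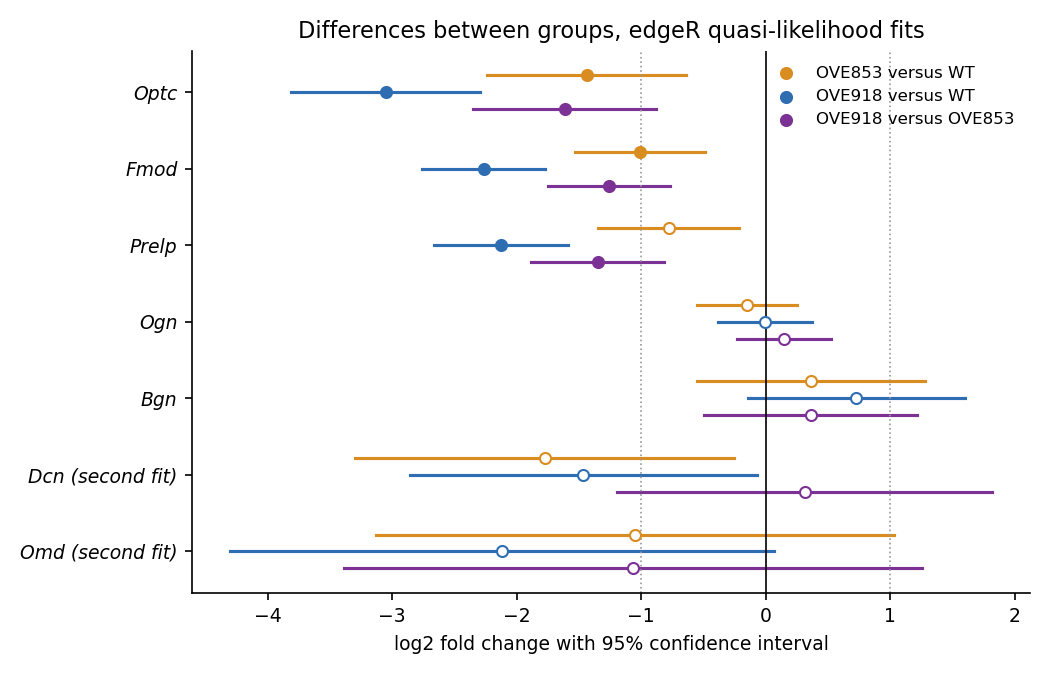
Log2 fold change of 7 SLRP genes in the 3 comparisons (points) with 95% confidence intervals (lines), from edgeR quasi-likelihood fits; filled points were called, and dotted lines mark a log2 fold change of 1 in either direction. Dcn and Omd, under the FPKM minimum, come from a second fit with a filter on counts in place of that minimum. Optc, Fmod and Prelp lie left of 0 in every comparison, and the intervals of Ogn and Bgn span 0.

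Because some SLRP genes moved and others did not, the composition of the SLRP transcript pool differed between groups. The summed level of the 10 genes was 329 ± 111 FPKM in WT, 159.8 ± 17.9 FPKM in OVE853 and 92.4 ± 15.8 FPKM in OVE918 (SD; n = 3, 3 and 4). Optc made up 63.2% ± 7.65 of it in WT, 48.9% ± 4.07 in OVE853 and 27.3% ± 6.64 in OVE918. Ogn made up 12.9% ± 0.866, 23.8% ± 3.31 and 46.6% ± 8.65, and its share did not overlap between the groups. The leading SLRP transcript was Optc in all WT and OVE853 libraries and Ogn in all OVE918 libraries. The ratio of Optc to Ogn was 4.91 ± 0.722 in WT, 2.09 ± 0.459 in OVE853 and 0.614 ± 0.237 in OVE918. Bgn held 1.93%, 4.93% and 10.5% of the pool on average, which in OVE918 put it beside Fmod (10.0 and 9.75 FPKM, overlapping ranges). These shares are descriptions, since a share rises when another gene falls. Among the chromosome 1 genes, the ratio of Prelp to Fmod had overlapping ranges in the 3 groups (means 0.435, 0.521 and 0.493).

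**Figure D3:**
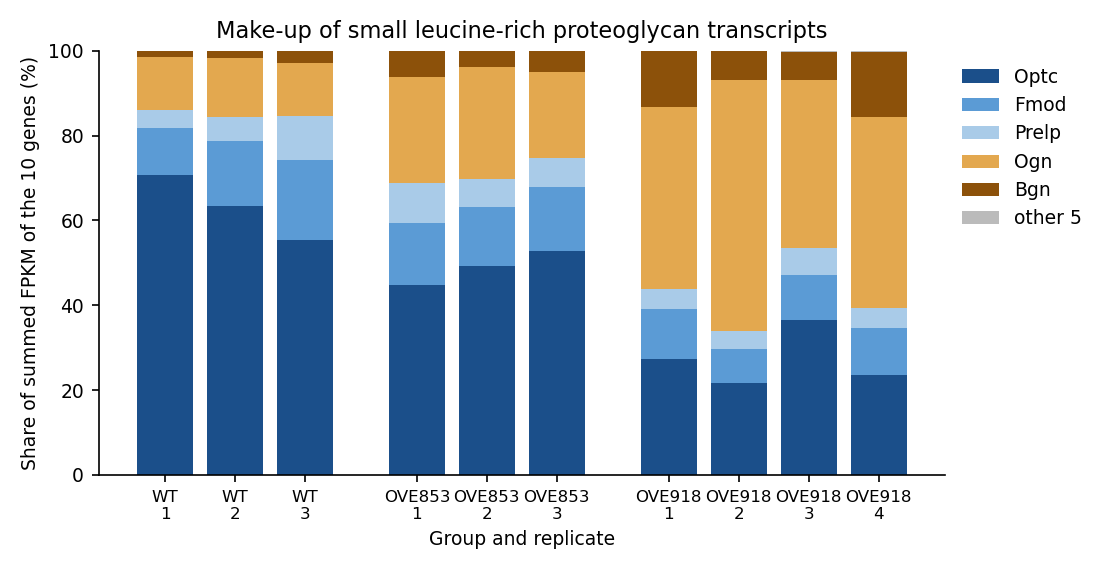
Share of each gene in the summed FPKM of the 10 SLRP genes (percent), 1 bar for each library. The Optc segment shrinks from 55.5 to 70.8% in WT to 21.7 to 36.6% in OVE918, and the Ogn segment grows from 12.3 to 13.9% to 39.5 to 59.1%; the other 5 genes are too low to be seen.

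Kera and Lum, known from corneal stroma, and Aspn and Omd were near the detection limit. Kera had 0 counts in all 10 libraries, and a count of 0 allows a level of up to 0.0906 to 0.138 CPM, depending on the library (3 counts, counting error only). Lum had 1, 0 and 8 counts in WT, 0, 2 and 13 counts in OVE853 and 0, 0, 0 and 3 counts in OVE918. The Lum counts of OVE853 replicate 3 and WT replicate 3 were the only ones above 3. Aspn, which lacks the glycosaminoglycan chains of its class I relatives, had 7, 2 and 0 counts in WT, 1, 0 and 2 in OVE853 and 6, 3, 4 and 1 in OVE918. Omd, best known from bone, had 14, 11 and 2 counts in WT, 12, 2 and 2 in OVE853 and 1, 1, 6 and 0 in OVE918. At these counts no difference was detectable for Lum, Aspn or Kera, which entered neither fit.

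Dcn, the collagen-binding and TGF-β-binding proteoglycan typical of fibroblasts, had 25, 19 and 67 counts in WT, 11, 7 and 18 in OVE853 and 6, 10, 5 and 26 in OVE918. On the CPM scale these were 1.12, 0.731 and 2.35 in WT, 0.332, 0.259 and 0.613 in OVE853 and 0.257, 0.372, 0.186 and 1.20 in OVE918. WT replicate 3 was the highest, and OVE853 lay under WT without overlap whereas OVE918 replicate 4 reached into the WT range. The share of genes with such lower groups (22% in OVE853) was computed only over genes at the FPKM minimum. Dcn lies under that minimum, so that nothing is concluded from the missing overlap. Dcn and Omd were tested in a second edgeR fit of 18058 genes, which replaced the FPKM minimum by edgeR's own filter on counts. Dcn had log2 fold changes of -1.78 ± 0.69 in OVE853 (edgeR FDR 0.105) and -1.46 ± 0.63 in OVE918 (edgeR FDR 0.136), and Omd of -1.05 ± 0.94 (edgeR FDR 0.465) and -2.12 ± 0.99 (edgeR FDR 0.165). None of these was called. In that fit 1 of 7 SLRP genes was called lower in OVE853 (3.72% of all), 3 of 7 in OVE918 (5.34% of all) and 0 of 7 between the lines (0.194% of all), where Fmod and Prelp had an edgeR FDR of 0.0515 each and Optc of 0.0741 and all 3 were lower at an unadjusted p under 0.05.

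The lower levels of Optc, Prelp and Fmod were set beside the other genes of the region. Between the cluster genes and within 200 kb beyond either end of the cluster the count table held 15 further genes, of which 4 were tested, and they are named by position. Adora1, an adenosine receptor gene, fell in both lines (log2 fold changes -1.33 and -2.13). Atp2b4, a plasma membrane calcium pump gene, was called higher in OVE918 (1.10) and had 0.90 in OVE853 without a call. Chi3l1, a chitinase-like gene, fell in OVE853 (-2.28) and had 1.67 in OVE918 without a call. Btg2, the closest tested neighbour of Fmod, had -0.89 and -0.10 without a call. The tested flanking genes thus did not share 1 direction, and 2 of the 4 were called lower in OVE853 and 1 of the 4 in OVE918. Between Prelp and Fmod lies the long noncoding RNA gene Bmncr, named after its values were seen, which had at most 55 counts in a library and entered the second fit alone. Its log2 fold change there was -1.45 in OVE853 without a call (edgeR FDR 0.0745) and -2.58 in OVE918, where it was called lower (edgeR FDR 0.00498).

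**Figure D4:**
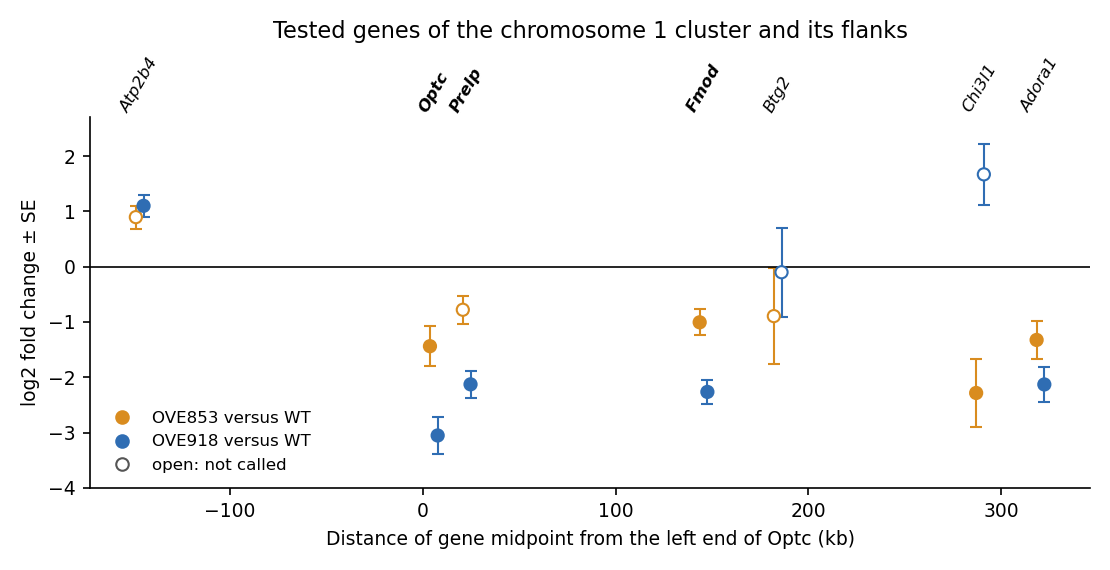
Log2 fold change ± SE against WT (y axis) of the tested genes of the chromosome 1 cluster (bold) and its flanks, by distance of the gene's midpoint from the left end of Optc in kb (x axis; the points of the lines are set slightly apart); filled points were called. Optc, Prelp and Fmod lie below 0 in both lines, with OVE918 the lower, whereas Atp2b4 lies above 0 in both and Chi3l1 on opposite sides.

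Across the 10 libraries, the genes whose log2 CPM (prior count 2) was most like that of each called SLRP gene were looked up among 18057 other genes by Pearson's r. These values describe likeness over libraries of 3 groups, and group differences make up much of the spread. For Fmod they were Bmp4 (0.988), which encodes a bone morphogenetic protein, Fcgrt (0.984), which encodes the neonatal Fc receptor, and Ntrk2 (0.983), which encodes a neurotrophin receptor. For Prelp they were Etnppl (0.995), which encodes an ethanolamine-phosphate lyase, Boc (0.99), a Hedgehog coreceptor gene, and Crhbp (0.99), which encodes a binding protein of corticotropin-releasing hormone. For Optc they were Cldn19 (0.986), a tight junction gene, Col18a1 (0.982), which encodes a basement membrane collagen, and Mecom (0.979), a transcription factor gene. Among themselves r was 0.969 for Fmod and Optc, 0.965 for Fmod and Prelp and 0.934 for Optc and Prelp, whereas r of Ogn with the 3 lay between -0.236 and 0.045.

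The partners and makers of SLRPs were counted in the same fit. Of the other SLRP family genes, 2 of 8 were tested (Podn and Tsku) and 0 were called in any comparison by edgeR, DESeq2 or voom, with both above WT in OVE853 at an unadjusted p under 0.05 and 0 in OVE918 against WT. Podn, which encodes podocan, had 414 ± 227 CPM in WT, 820 ± 51.2 CPM in OVE853 and 569.7 ± 45.4 CPM in OVE918. Of the 10 tested genes that build the linker of the sugar chains and 4 tested genes of keratan sulfate synthesis, 0 were called against WT by any of these tools. At an unadjusted p under 0.05, edgeR had 3 of the 10 linker genes higher and 4 lower in OVE853 and 0 higher and 2 lower in OVE918, and 1 of the 4 keratan sulfate genes higher in each line. With the filter on counts, 3 genes of these lists that lay under the FPKM minimum were called lower. They, and the genes that this filter adds to the lists that follow, are named after their values were seen. They were Nyx, the gene of the retinal SLRP nyctalopin (-1.48 in OVE918, edgeR FDR 0.0474), Papss2, which makes the sulfate donor (-2.35 in OVE918, edgeR FDR 0.00375), and the keratan sulfate sulfotransferase gene Chst1 (-2.26 in OVE853, edgeR FDR 0.0120, and -2.26 in OVE918, edgeR FDR 0.00453). In WT, Nyx ranged from 7.47 to 25.6 CPM and Chst1 from 5.50 to 18.4 CPM, each highest in WT replicate 3. Their results without that library, which had the most retinal markers, are not given. Of 8 tested genes of chondroitin and dermatan sulfate synthesis 1, the sulfotransferase gene Chst15, rose in both lines (log2 fold changes 1.30 and 1.14). The filter on counts let 14 genes of this list be tested and added Ust, the uronyl sulfotransferase gene, as lower in both lines (-1.18, edgeR FDR 0.0184, and -1.68, edgeR FDR 0.00116) and Chst3 as higher in OVE918 (1.72, edgeR FDR 0.00804). Ust ranged from 10.0 to 16.55 CPM in WT, highest in WT replicate 3, and a result without that library is not given.

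Several collagens that SLRPs bind were called higher in OVE853, and in OVE918 calls went in both directions. Of 8 tested collagen genes, 4 rose in OVE853 and 0 fell, and in OVE918 3 rose and 2 fell. DESeq2 and voom each called 3 higher and 0 lower in OVE853, and 3 higher and 2 lower in OVE918. Col5a3 had log2 fold changes of 3.56 and 3.96, Col1a1, the main chain of type I collagen, of 2.81 and 3.18, and Col11a1 of -0.90 without a call and -2.43. Col1a2, the other chain of type I collagen and named after its values were seen, was not called in either line. Its log2 fold changes were 0.57 (edgeR FDR 0.384) and -0.55 (edgeR FDR 0.386). With the filter on counts, 6 of 14 collagen genes were called higher and 1 lower in OVE853, and 5 higher and 3 lower in OVE918. Among those added, Col12a1 (1.76 and 2.40) and Col5a2 (1.38 and 1.80) rose in both lines. Col6a2, a chain of the microfibril-forming type VI collagen, fell in both (-2.10, edgeR FDR 0.00780, and -2.30, edgeR FDR 0.00167). Col6a2 ranged from 17.3 to 64.1 CPM in WT, highest in WT replicate 3, and a result without that library is not given. Other chains of type VI collagen, named after their values were seen, did not fall with Col6a2. With the FPKM minimum, Col6a3 was called higher in both lines (1.80, edgeR FDR 0.0035, and 1.19, edgeR FDR 0.015), and Col6a1 was not called. Vcan, the large hyaluronan-binding proteoglycan versican and the 1 tested gene of its list, had -0.93 without a call in OVE853 and fell in OVE918 (-2.58). The filter on counts added Bcan, the brain proteoglycan brevican, as lower in OVE853 (-3.73, edgeR FDR 0.0206). Its WT level ranged from 0.577 to 4.10 CPM, highest in WT replicate 3, and a result without that library is not given. The genes listed for proteases that cut SLRPs or related matrix include Pcolce and Pcolce2, which encode protease enhancers. Of 8 tested genes of this list, 2 rose in both lines and 0 fell. They were Mmp2 (1.40 and 1.86) and Adamts4 (1.13 and 1.07). In OVE918, DESeq2 also called 2 of the 8 higher, and voom called 1. With the filter on counts, 15 were tested, and Tll2 was also called higher in both lines (2.05 and 2.67), while Adamts9 (-1.58, edgeR FDR 0.00357) and Adamts15 (-1.31, edgeR FDR 0.0230) were called lower in OVE918. Of 8 tested receptors and ligands of soluble SLRPs, 1 was called, Tgfb1 itself (2.69 and 3.83, transgene reads included). With the filter on counts 14 were tested, and both Tlr4, a Toll-like receptor gene (-3.60, edgeR FDR 0.00136, and -4.14, edgeR FDR 0.000200), and Egfr, the gene of the epidermal growth factor receptor (-2.26, edgeR FDR 0.00193, and -2.57, edgeR FDR 0.000308), were called lower in both lines. In WT, Tlr4 ranged from 4.785 to 13.15 CPM and Egfr from 20.5 to 55.3 CPM, each highest in WT replicate 3. Results of these genes without that library are not given.

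Most tested markers of the non-pigmented ciliary epithelium, which secretes opticin, were lower in the lines, as Optc, Fmod and Prelp were. Of the 11 markers 8 were tested, of which 4 fell in OVE853, 7 fell in OVE918 and 3 fell from OVE853 to OVE918, with 0 higher in each. Their median log2 fold changes were -1.76, -3.23 and -1.37, beside -0.78, -2.13 and -1.26 for the 5 tested SLRP genes. Best2 had -2.39 and -4.16 in the lines against WT, and Slc6a13 had -3.18 and -4.77. The summed level of the 11 markers was 1651 to 2021 CPM in WT, 1566 to 1775 CPM in OVE853 and 877 to 1075 CPM in OVE918, and none of the markers was at 0 throughout a group. The most abundant in both lines, the water channel gene Aqp1, went the other way, with 662 CPM in WT, 1266 CPM in OVE853 and 834 CPM in OVE918. Its log2 fold change in OVE853 was 0.94 (edgeR FDR 0.00722), under the fold limit, and in OVE918 0.33 (edgeR FDR 0.197). Several of these genes are also expressed in other epithelia, and their part in the fall of the SLRP genes was not tested.

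Other marker lists also differed between groups. Of 6 tested Müller glia markers 4 fell in OVE853 and 3 in OVE918, with summed levels of 7206 to 8763 CPM in WT, 5169 to 5680 CPM in OVE853 and 6000 to 6510 CPM in OVE918, set mostly by Dkk3 and Vim. In WT the called markers ranged from 29.9 to 209.8 CPM (Rlbp1), 329.8 to 1060 (Glul), 38.2 to 142 (Slc1a3) and 61.5 to 117 (Aqp4). Each was highest in WT replicate 3, and results without that library are not given. The corneal epithelium list had 238 to 1622 CPM in WT, 63.7 to 94.5 CPM in OVE853 and 27.7 to 83.5 CPM in OVE918, nearly all of it Aldh3a1, and Krt12 was at 0 in both lines. Markers of stromal mesenchyme, a known source of Dcn and Lum, had 443 to 871 CPM in WT, 1074 to 1193 CPM in OVE853 and 765 to 1087 CPM in OVE918. Pdgfra and Lamb1 made up most of this sum, whereas Angptl7 (means of 3.25, 0.306 and 0.408 CPM) and Foxc1 (1.24, 0.537 and 0.318 CPM) were lower in the lines, and Dpt was at 0 in OVE918. Summed markers of the retinal pigment epithelium had 56.9 to 176 CPM in WT, 39.2 to 67.3 CPM in OVE853 and 33.1 to 59.5 CPM in OVE918. Members of that list that missed the FPKM minimum went in both directions. Ttr had means of 25.7, 0.496 and 0.191 CPM, Rpe65 7.03, 0.718 and 0.279 CPM and Rgr 28.6, 1.18 and 1.12 CPM. Among the WT pools, replicate 3 had the highest level of Ttr (51.1 CPM), Rpe65 (15.25 CPM) and Rgr (62.1 CPM). Lrat and Best1 also had lower means in both lines. Tyr had higher means in both (1.20, 1.70 and 2.08 CPM), and Mlana in OVE918 alone (2.05, 1.52 and 2.89 CPM). Of 3 tested macrophage markers 1, C1qa, rose in OVE918 (1.35, edgeR FDR 0.0446) and had 1.35 in OVE853 without a call (edgeR FDR 0.0586). Of the lens epithelium markers 1 of 11, Gja1, was called lower in each line. Under the fold limit, Cdh1 (-0.76 and -0.61) and Six3 (-0.38 and -0.66) in both lines and Slc38a3 (-0.76) in OVE918 were lower at an edgeR FDR under 0.05. Prox1 and Pitx3 pointed higher in both lines without passing that FDR. Summed levels, set mostly by Cryaa and Cryab, were 154600 to 159900 CPM in WT, 104900 to 119400 CPM in OVE853 and 129300 to 196500 CPM in OVE918. WT replicate 3, the library with the most retinal markers, had the highest Prelp, Dcn and Lum levels of the WT pools and the lowest Optc and Ogn levels. The part of these tissues in the SLRP results was not tested.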

How the data were processed

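Lens epithelial RNA of 10 pooled samples (3 WT, 3 OVE853, 4 OVE918) was analysed. According to the study's methods and the submitters' processing notes, the authors used Cutadapt 5.2 for trimming, STAR 2.7.11b for alignment of the read pairs to GRCm39, and featureCounts 2.0.8 (reverse-stranded) for the counts of each RefSeq gene. They deposited unnormalized counts of 50763 genes, and 0 columns lacked a sample.

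Counts were fitted with edgeR 4.0.16 (R 4.3.3): TMM factors, robust quasi-likelihood fit of the 3 groups, 3 contrasts, Benjamini-Hochberg adjustment (FDR) within each. Genes with at least 2 FPKM in 5 of 10 libraries were tested (11094). FPKM was computed with GENCODE vM39 exon lengths matched by symbol, and 7489 genes had no length. SE is the absolute log2 fold change over the square root of F. Because replicates are pools, p-values measure the spread between pools, and intervals and the floor of 3 counts cover counting error only where stated.

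All 10 SLRP genes are named whatever their values. From each pathway list, up to 3 called genes with the largest change against WT are named, from likeness the first 3, and neighbours by position. The 10 genes, the lists and the tests were chosen with earlier results of these data known. Alternatives were filterByExpr, 6 libraries at the FPKM minimum, no filter, upper-quartile factors, DESeq2 1.42.0, voom (limma 3.58.1) with sample weights, no robust estimation, only the groups compared, a replicate block, no fold limit, and leaving out each library. Steps were tested on simulated data.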

Additional observations from a re-analysis of the deposited data

Results flagged for a closer look

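For Optc, Fmod and Prelp the effect differed between the transgenic lines by a test of the difference itself. The log2 fold change of OVE918 against OVE853 was -1.62 for Optc (edgeR FDR 0.0485), -1.26 for Fmod (edgeR FDR 0.0347) and -1.35 for Prelp (edgeR FDR 0.0370), and for each gene all 4 OVE918 pools lay under all 3 OVE853 pools. The between-line calls rest on few libraries, as given with that comparison.

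In OVE918, 1 library stood apart from the rest of its group for Lum, replicate 4 with 0.138 CPM against 0 in the other 3 libraries. It held 3 counts, which is the level that a count of 0 allows. With 0 in the other 3 libraries, any count above 0 would be set apart in this way, so that nothing is concluded from it.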

How the results depend on the processing

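In OVE918 against WT, 3 SLRP genes were called under all 20 alternatives. In OVE853 against WT, the 2 calls became 1 with filterByExpr, with no filter and with voom, 0 with the replicate block, and 0 to 2 when 1 library was left out. Between the lines the 3 calls became 0 with filterByExpr and with no filter, 2 with upper-quartile factors (Optc lost, edgeR FDR 0.0554), 1 with the block, and 0 to 3 when 1 library was left out. Replicate numbers did not pair the samples (correlation of same-numbered samples -0.302 to 0.0871 over 9 pairs), and the block gives OVE918 replicate 4, the only library with its number, a term of its own. Signs turned only for genes that were not called. Ogn in OVE918 against WT had 0.016 with filterByExpr, 0.010 with no filter, 0.038 with upper-quartile factors, 0.0020 with DESeq2, 0.044 with voom, and -0.16 to 0.26 when 1 library was left out (0.012 without OVE918 replicate 2, 0.026 without replicate 3 and 0.26 without WT replicate 1). Ogn in OVE853 had 0.11 without WT replicate 1 and -0.31 without WT replicate 3, and Bgn between the lines had -0.0056 with the block. Over the whole table, calls numbered 491, 620 and 54 in the 3 comparisons, 1244, 1587 and 44 with filterByExpr, 1061, 1548 and 59 with no filter, 107 between the lines with DESeq2, 124 with voom, 97 with only the groups compared and 28 with the block, and 5 to 96 between the lines when 1 library was left out. Apart from fewer or more genes and samples in the fit, the cause of these shifts was not tested. Depth limits Dcn, Omd, Lum, Aspn and Kera, whose values rest on at most 67 counts in a library.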
